A study of Glycine max with 5 samples.

Results

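The genes described here are 8 soybean genes of photosynthesis and the chloroplast, CAB3, PSAD, PETC, ATPC, RCAALPHA, CHLH, PTOX and DGD2. They were chosen by gene symbol, as all probe sets that the platform annotation assigns to 1 of these symbols and to no other gene. This gave 21 probe sets, of 37593 on the array, for 8 of the 6031 genes that had a probe set of their own. A probe set is a group of short oligonucleotides designed for 1 transcript, and its value here is a MAS5 signal, the linear intensity that the Affymetrix method of that name makes from them. RNA came from 10-day-old seedlings of Glycine max, genotype Bragg, grown at 28 °C in potting mix without fertilizer under natural long days. The root meristem group was 3 arrays of root tips cut at 0.5 mm under a microscope. The comparison group was 2 arrays of non-meristematic tissue from seedlings of the same genotype, age and growth conditions. Its tissue field says leaf, while the treatment text describes the remaining parts of the plants, so that its makeup is not settled. The free-text descriptions of the samples speak of embryos and their stages, against the titles, tissue fields and protocols of the same samples, and were not used to group them. The study's purpose was to define genes enriched in the root meristem. The titles call the samples biological replicates with no further detail, so that p-values measure the spread between these 5 arrays.

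Chloroplasts capture light in antenna proteins that bind chlorophyll, pass electrons from photosystem II through the cytochrome b6f complex to photosystem I, and use the resulting proton gradient to make ATP for carbon fixation by Rubisco. Root cells hold plastids too, but usually non-green ones, which make lipids, carotenoid precursors and haem without photosynthesis. In the list, CAB3 encodes a chlorophyll a/b-binding antenna protein, PSAD a stromal subunit of photosystem I, PETC the Rieske protein of the cytochrome b6f complex, and ATPC the gamma subunit of the ATP synthase of chloroplasts. RCAALPHA encodes a Rubisco activase, which frees Rubisco of inhibitory sugar phosphates, and CHLH the large subunit of magnesium chelatase, which commits porphyrin to chlorophyll. PTOX, the plastid terminal oxidase, takes electrons from plastoquinol and is needed for carotenoid synthesis in Arabidopsis. DGD2 makes the galactolipid DGDG, a plastid membrane lipid, and in Arabidopsis it serves mainly under phosphate shortage.

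The 8 genes fell into 2 kinds of pattern. CAB3, PETC, ATPC, RCAALPHA and CHLH, and PSAD on 2 of its 3 tested probe sets, were far lower in root meristem, by 28.1-fold to 222-fold, and by at least 194-fold for RCAALPHA. PTOX and DGD2 showed low to moderate signal in both tissues and did not pass the test. PSAD and CAB3 each had a further probe set that did not follow the others. Of the 21 probe sets, 14 were above background on at least 2 arrays and were tested, and of these 9 were lower in root meristem, 0 higher, and 5 did not pass. The 25th percentile of an array's signals served as its background, which was 37 and 26.3 on non-meristematic arrays 1 and 2 and lay between 17.9 and 22.5 on the other 3. A call needed a log2 difference of at least 1 and a limma p below 0.05 after Benjamini-Hochberg adjustment over the 30941 tested probe sets. Over all tested probe sets 18.1% were lower by this rule, 14.4% higher and 32.5% changed in either direction, with a median log2 difference of 0.07. The median over the 14 tested here was -5.73. The groups did not overlap at 10 of the 14, against 63.7% of all tested probe sets, and every root meristem array was below both others at 9, against 29.6%. Of the 21 probe sets, 14 were above background on both non-meristematic arrays, against 70.3% of all on the array. Since a probe set seen only in non-meristematic tissue passes the filter because it is high there, the 14 are not a sample of all 21.

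**Figure D1:**
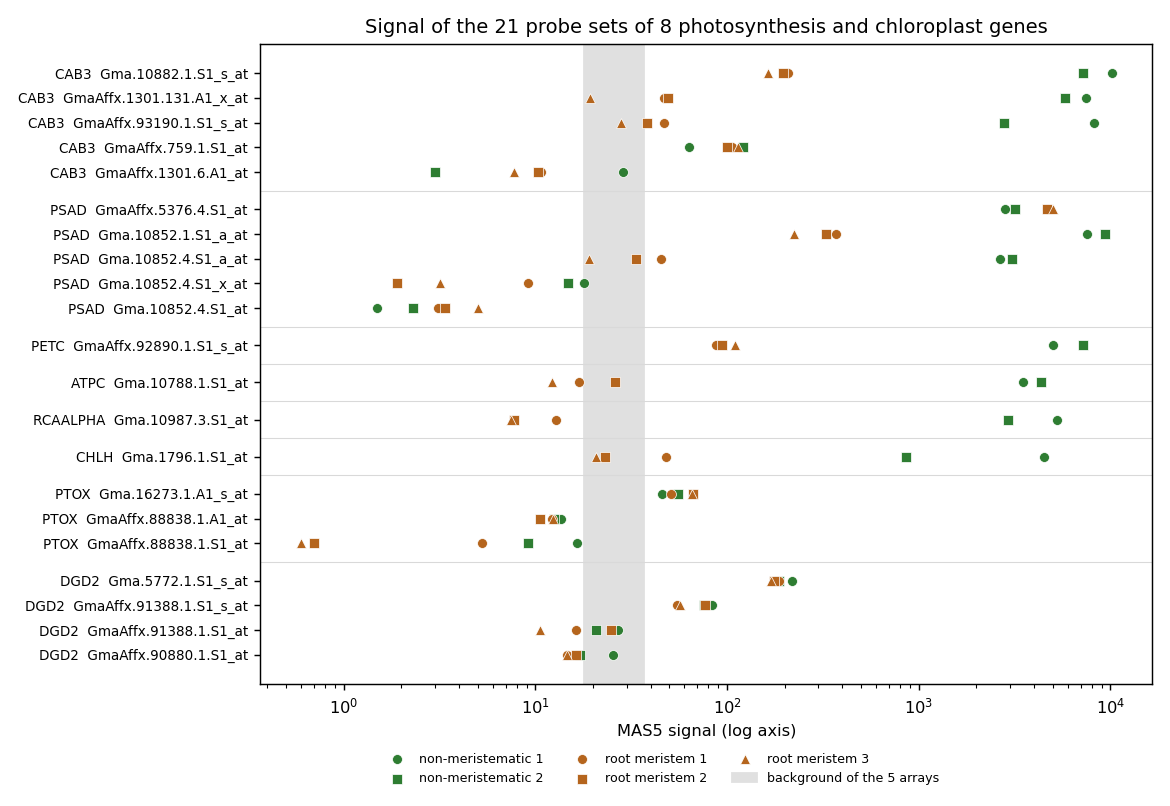
MAS5 signal (log axis) of each of the 21 probe sets on each array, brown for root meristem and green for non-meristematic tissue, with replicates by marker shape and the range of the 5 array backgrounds in grey. At 9 probe sets the root meristem points lie far to the left of the green ones, while those of the tested DGD2 and PTOX probe sets lie close together.

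Among the antenna genes, CAB3 was measured by 5 probe sets. Gma.10882.1.S1_s_at had signals of 208.5, 195.5 and 164.3 on root meristem arrays 1 to 3, and of 10170.6 and 7205.8 on non-meristematic arrays 1 and 2. All root meristem signals were above background and far below both others, a 45.4-fold difference (log2 -5.51 ± 0.22 SE, adjusted p = 3.19e-05, limma). GmaAffx.1301.131.A1_x_at had 46.9, 49.3 and 19.4 in root meristem, against 7438.1 and 5819.2 in non-meristematic tissue (log2 -7.53 ± 0.44). GmaAffx.93190.1.S1_s_at had 46.7, 38.3 and 28.1, against 8155.6 and 2793.9 (log2 -7.02 ± 0.47, and -6.24 or -7.79 without non-meristematic array 1 or 2). In these probe sets the root meristem signal was small but above background on every array. The signal of 19.4 at GmaAffx.1301.131.A1_x_at on root meristem array 3 was little above that array's background of 17.9, so that its fold is imprecise. All 3 carry a suffix (_s_at or _x_at) by which Affymetrix marks probes that may bind transcripts of other genes. Antenna proteins are a large family of similar genes, and a separate gene, LOC100805310, also carries CAB3 as a synonym, so that these signals may be shared.

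The fourth tested CAB3 probe set behaved differently. GmaAffx.759.1.S1_at, which has no such suffix, had 105.9, 99.4 and 113.9 in root meristem, and 63.1 and 121.3 outside the meristem. The groups overlapped, and the log2 difference was 0.28 ± 0.34 (95% interval -0.53 to 1.09, adjusted p = 0.55). The remaining one, GmaAffx.1301.6.A1_at, lay below background on all 5 arrays and was not tested. To ask whether probe sets of 1 gene differ in their tissue difference, the log2 ratio of the brightest tested probe set to each other tested one was fitted with limma over all 2197 such pairs on the array, of which 14.6% passed at an adjusted p below 0.05. For CAB3 the tissue difference of Gma.10882.1.S1_s_at was more negative than that of GmaAffx.759.1.S1_at (log2 -5.79 ± 0.44, adjusted p = 0.00212). It was also less negative than those of GmaAffx.1301.131.A1_x_at and GmaAffx.93190.1.S1_s_at, by 2.03 ± 0.35 (adjusted p = 0.0211) and 1.51 ± 0.33 (adjusted p = 0.0381). The 2.03 missed the threshold without root meristem array 1 (adjusted p = 0.0527), and the 1.51 when root meristem array 1, 2 or 3 or non-meristematic array 1 was left out (adjusted p = 0.0647 to 0.114).

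PSAD, the photosystem I subunit at which ferredoxin docks, gave the widest disagreement. Gma.10852.1.S1_a_at had 368.8, 328.5 and 223.4 in root meristem, against 7574.4 and 9391.1 in non-meristematic tissue (28.1-fold, log2 -4.81 ± 0.26, adjusted p = 7.17e-05). Gma.10852.4.S1_a_at had 45.5, 33.6 and 19, against 2651.4 and 3075.7 (log2 -6.54 ± 0.39). On both, every root meristem array was above background and below every non-meristematic array. The signal of 19 at Gma.10852.4.S1_a_at on root meristem array 3 was little above that array's background of 17.9, so that its fold is imprecise. GmaAffx.5376.4.S1_at, the brightest, had 4661.5, 4686.6 and 4996.1 in root meristem, and 2833.1 and 3178.3 on the others. Here the groups did not overlap in the opposite direction, at a log2 difference of 0.67 ± 0.13 (adjusted p = 0.00759), under the minimum size of 1, and it passed only after median centring of the arrays (log2 1.03). The tissue difference of this probe set exceeded that of Gma.10852.1.S1_a_at by 5.48 ± 0.25 (adjusted p = 0.000341) and that of Gma.10852.4.S1_a_at by 7.21 ± 0.39 (adjusted p = 0.000596), which passed with each array left out in turn. The other 2 PSAD probe sets lay below background on all 5 arrays.

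The position of the PSAD probe sets in the array's design differed in the same way. Probe set names share a leading number when the array's designers built them from 1 cluster of sequences. In the cluster Gma.10852, which holds 4 PSAD probe sets, the other 2 probe sets are assigned to LOC100800992 and LOC100786069, and both were lower in root meristem (log2 -4.40 ± 0.28 and -1.24 ± 0.19). GmaAffx.5376.4.S1_at belongs to another cluster, whose other 4 probe sets were all above background on every root meristem array, with 0 lower and 1 higher. In that cluster the probe set of the gene GRP had 5049.7, 4691.8 and 4786.5 in root meristem, against 4719.6 and 5431.8 in non-meristematic tissue (log2 -0.06 ± 0.13). LOC100802667 had 7819.1, 8372.2 and 7539.8, against 3298.6 and 3415.9 (log2 1.24 ± 0.12, adjusted p = 0.00053). The bright root meristem signal listed under PSAD comes from 1 probe set, and its assignment to PSAD was not tested. Both clusters hold probe sets of 2 other named genes, so that lying beside other genes does not set this probe set apart. The cluster GmaAffx.1301 of 2 CAB3 probe sets is also mixed, with 76 other probe sets, of which 22 were lower, 9 higher and 42 did not pass. These clusters were looked up after the values were seen.

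**Figure D2:**
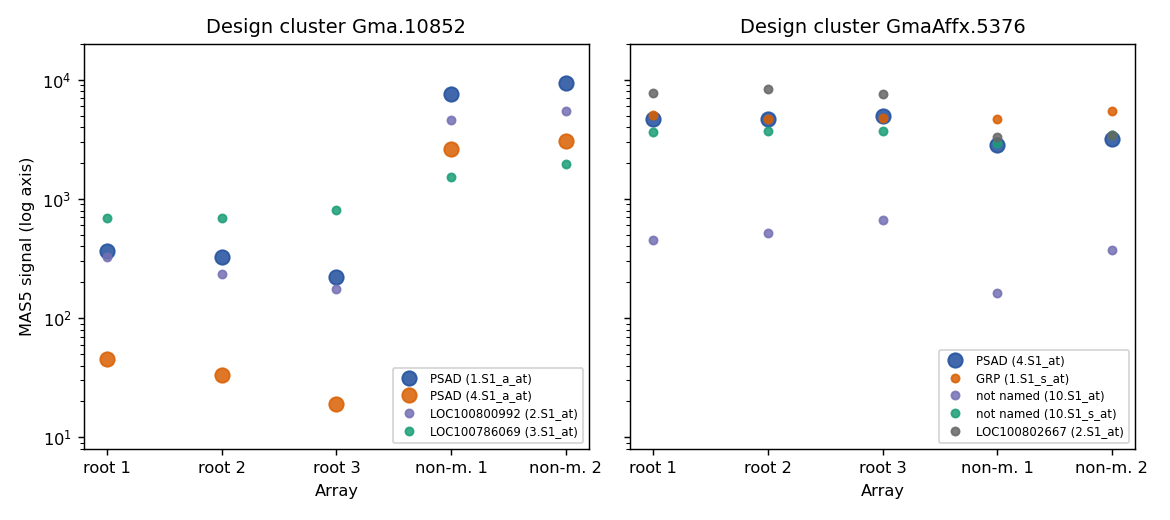
MAS5 signal (log axis) on each array for the tested probe sets of the 2 design clusters that hold PSAD, with PSAD as large points. In the cluster Gma.10852 all 4 probe sets are lower on the root meristem arrays, and in GmaAffx.5376 the PSAD points lie at 2833.1 to 4996.1 on all arrays, among those of other genes.

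Of the electron transport and ATP synthase genes, PETC and ATPC had 1 probe set each. For PETC, GmaAffx.92890.1.S1_s_at had 87.9, 93.9 and 110 in root meristem, against 5012.5 and 7158.2 in non-meristematic tissue. It was above background on all 5 arrays, 61.9-fold lower in root meristem (log2 -5.95 ± 0.24, adjusted p = 3.09e-05), and carries the suffix for possible cross-hybridization. For ATPC, Gma.10788.1.S1_at had 17, 26 and 12.2, against 3517.1 and 4327. Only root meristem array 2 was above its background, so that the fitted 222-fold difference (log2 -7.80 ± 0.36, adjusted p = 4.42e-05) rests partly on signals at background level.

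RCAALPHA lay below background in root tips. Gma.10987.3.S1_at had 12.8, 7.7 and 7.5 in root meristem, all below background, and 5283.4 and 2927.5 in non-meristematic tissue. With root meristem held at background the gene was at least 194-fold lower (fitted log2 -8.76 ± 0.39, adjusted p = 3.96e-05). With either non-meristematic array left out, only 1 array remained above background and the gene was no longer tested. Its design cluster holds 5 further probe sets, 3 of them of the activase gene RCA14, and all 5 were lower in root meristem, with signals there between 0.9 and 31.8.

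CHLH, the chlorophyll synthesis gene, was lower in root meristem with the widest spread. Gma.1796.1.S1_at had 47.9, 23.2 and 20.8 in root meristem, against 4480.4 and 856.4. The groups did not overlap (68.8-fold, log2 -6.10 ± 0.71, adjusted p = 0.00116), but the non-meristematic arrays differed 5.23-fold from each other. The signals on root meristem arrays 2 and 3 were little above their backgrounds of 20.7 and 17.9, so that the fold is imprecise. The log2 difference was -4.91 without non-meristematic array 1 and -7.30 without array 2, and it passed in both cases.

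PTOX and DGD2, which act in plastids that need not be green, were the genes with no call on any probe set. For PTOX, Gma.16273.1.A1_s_at had 51.1, 66.4 and 65.6 in root meristem, against 45.9 and 55.3 in non-meristematic tissue. All 5 signals were above background and the groups overlapped (log2 0.27 ± 0.31, 95% interval -0.48 to 1.01, adjusted p = 0.535). For DGD2, Gma.5772.1.S1_s_at had 187, 176.2 and 169.1, against 218.6 and 186.7 (log2 -0.19 ± 0.22, 95% interval -0.72 to 0.35, adjusted p = 0.54). GmaAffx.91388.1.S1_s_at of DGD2 had 54.8, 76.9 and 56.6, against 83.9 and 76 (log2 -0.36 ± 0.30, 95% interval -1.08 to 0.35, adjusted p = 0.375). On both DGD2 probe sets the groups overlapped. These intervals leave out changes of the size seen in the photosynthesis genes, but not smaller ones of up to about the minimum size of 1. The 3 probe sets carry the suffix for possible cross-hybridization, and the direction of the small differences changed with the scaling for DGD2, whose first probe set ranged from log2 -0.30 to 0.17 over the alternatives. Of the other 4 PTOX and DGD2 probe sets, which have no such suffix, 3 were below background on all 5 arrays and 1 was above it on root meristem array 2 alone.

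**Figure D3:**
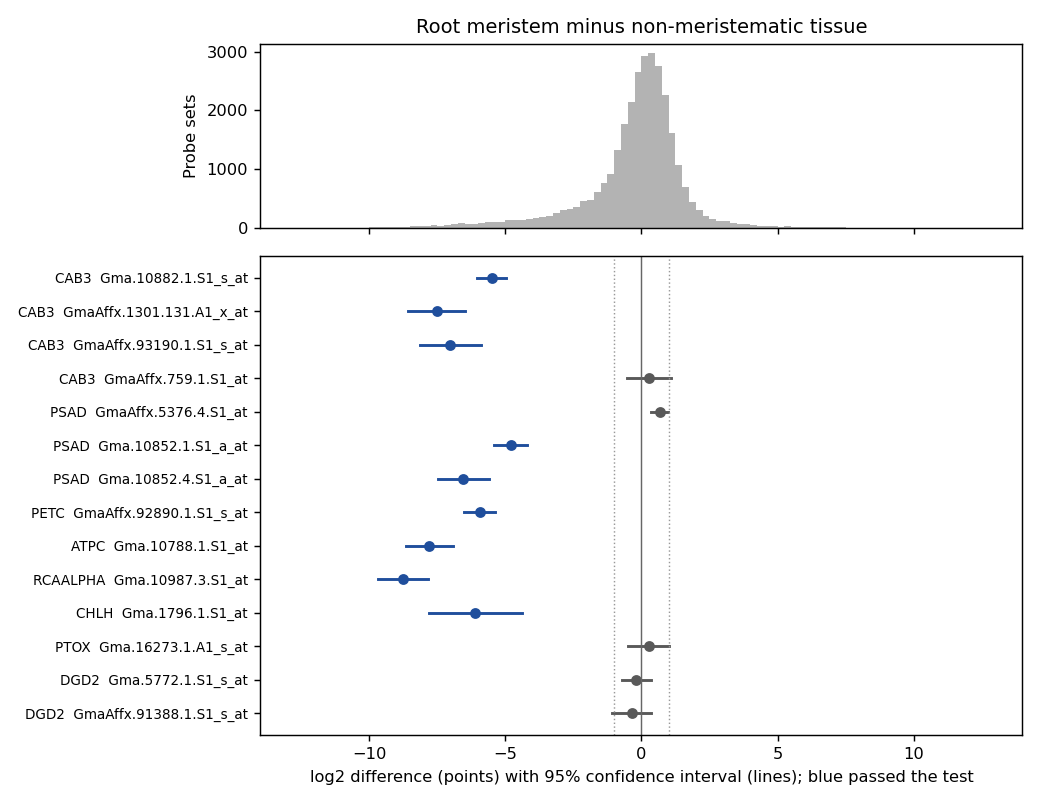
Above, the log2 differences of all 30941 tested probe sets as a histogram. Below, the log2 difference (point) and its 95% confidence interval (line) of the 14 tested probe sets of the 8 genes, blue where the test was passed and dotted lines at the minimum size, with 9 between -8.76 and -4.81 and 5 between -0.36 and 0.67.

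With each gene taken on its brightest tested probe set, by mean log2 signal, 5 of 8 genes were lower in root meristem and 0 higher, with a median log2 difference of -5.73. Over all 5652 genes tested in this way 21.0% were lower, 18.6% higher and 39.6% changed in either direction, with a median of 0.20. PSAD counted among the 3 that did not pass, through GmaAffx.5376.4.S1_at. Without that probe set 6 of 8 were lower. Without the probe sets marked for cross-hybridization 5 of 7 tested probe sets and 3 genes were lower, since CAB3 was then represented by GmaAffx.759.1.S1_at (log2 0.28) and PETC had no probe set left. Single genes were also compared over the 10 possible splits of 3 against 2 arrays, with the smaller tail doubled. This exact two-sided permutation test gave p = 0.2 for CAB3, PSAD, PETC, ATPC, RCAALPHA and CHLH. The same exact permutation test gave p = 0.4 for PTOX and DGD2. With the doubling, no value below the first of these was possible.

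The rule for genes kept on in root tips was signal above background on all 3 root meristem arrays. It held for 12 of the 21 probe sets, against 70.1% of all probe sets on the array, and for at least 1 probe set of CAB3, PSAD, PETC, CHLH, PTOX and DGD2. ATPC and RCAALPHA did not meet it. With background at the 40th percentile of each array it held for 7 probe sets, of CAB3, PSAD, PETC and DGD2, against 55.8% of all. With background at the 15th percentile it held for 16, against 79.2%, and only RCAALPHA stayed out. Signal above background in root tips was thus found both for genes that were far lower there (PETC at 97.3 ± 11.4, SD, n = 3) and for genes that did not pass (DGD2 at 177 ± 9.01). In whole root tips, fewer cells that make a transcript and less of it in each cell cannot be told apart.

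The low signals in root meristem varied between the arrays. Of the 9 probe sets that were lower, root meristem array 3 had the lowest signal at 8, PETC being the exception, and array 1 the highest at 6. The ratio of the highest to the lowest root meristem signal ran from 1.25 at PETC to 2.54 at GmaAffx.1301.131.A1_x_at of CAB3. It was 1.27 at Gma.10882.1.S1_s_at of CAB3 and 2.30 at CHLH. Array 3 also had the lowest background of the 5, 17.9. The part of array background in this order was not tested.

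At the 9 lower probe sets, the non-meristematic arrays differed in both directions, but differences of at least 2-fold all went toward array 1. CHLH was 5.23-fold higher on array 1 than on array 2, GmaAffx.93190.1.S1_s_at of CAB3 2.92-fold and RCAALPHA 1.80-fold. PETC was in turn 1.43-fold higher on array 2, Gma.10852.1.S1_a_at of PSAD 1.24-fold and ATPC 1.23-fold. In all, 5 of the 9 probe sets were higher on array 1 and 4 on array 2. Among the 26410 probe sets above background on both arrays, 9.40% were at least 2-fold higher on array 1, 2.92% at least 4-fold, and 5.26% at least 2-fold higher on array 2. Of 28 other tested plastid genes, described further on, 16 were higher on array 1 and 12 on array 2. At least 2-fold differences were found at 11, all toward array 1, among them ELIP (5.47-fold), which encodes an early light-induced protein, ZEP (3.56-fold) and DXR2 (9.19-fold). The farthest toward array 2 was HPT1 (1.93-fold). With 1 array in each case these ratios have no replicate check.

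**Figure D4:**
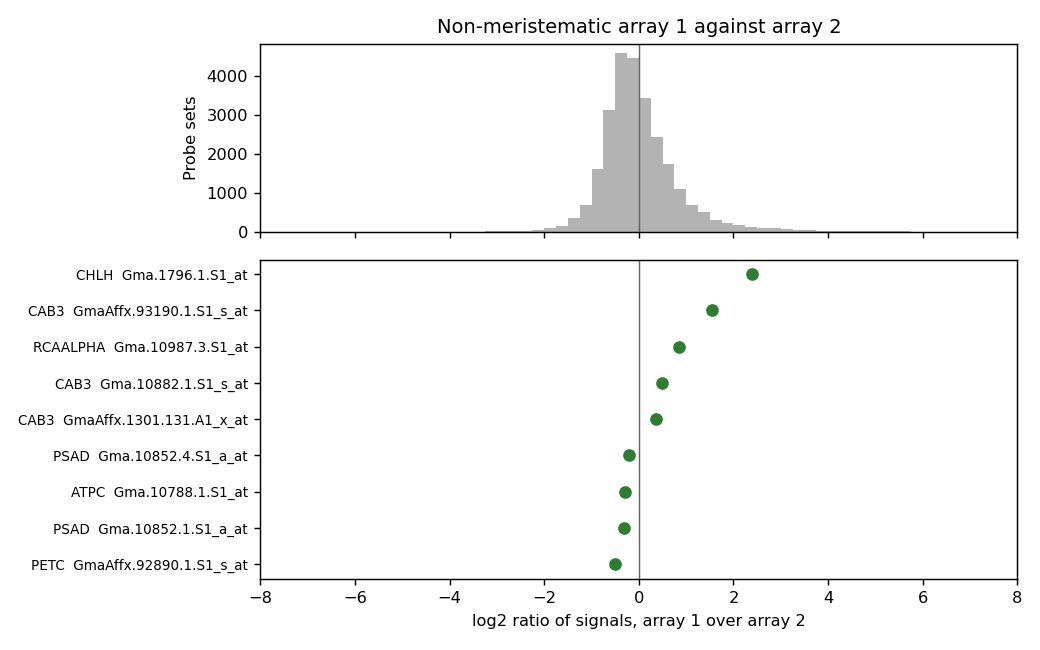
Log2 ratio of non-meristematic array 1 to array 2, above as a histogram over the 26410 probe sets above background on both, and below for the 9 probe sets that were lower in root meristem. CHLH lies farthest to the right, at 5.23-fold, and PETC farthest to the left.

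Other genes of photosynthesis and plastid pathways were taken from a list of symbols and synonyms, which gave 29 genes, 28 of them tested. Of these 15 were lower in root meristem, 1 was higher and 12 did not pass. Their median log2 difference was -2.01. This stands beside 21.0% lower and 18.6% higher over all genes. Without non-meristematic array 1, 12 of 27 were lower, the median was -0.95, and 2 others were higher in place of HPT1, BCH3 (log2 1.43) and FAD7-2 (log2 1.89), which were named after their values were seen. Without array 2, 17 of 27 were lower. Both genes of the light-harvesting list, an antenna protein gene and an early light-induced protein gene, were lower. LOC547819 (LHCP), an antenna protein gene, had 29.3, 39.9 and 16.7 in root meristem, against 9762.1 and 4285.7 in non-meristematic tissue (log2 -7.91 ± 0.48, and -7.31 or -8.50 without non-meristematic array 1 or 2), with 2 of 3 root meristem signals above background. ELIP was 7.59-fold lower (407 ± 243, n = 3, against 3703 ± 3619, n = 2, adjusted p = 0.0274, limma), a call lost without root meristem array 2 or 3 or non-meristematic array 1 (log2 -1.70 without the last). In electron transport, FTRC, a subunit of ferredoxin-thioredoxin reductase, was lower (log2 -2.25 ± 0.19), and NDHK, a subunit of the chloroplast NDH complex, had log2 -0.86 ± 0.49 and did not pass, while its other tested probe set was lower (log2 -2.61). The first was at -0.17 without non-meristematic array 1, and was called lower without array 2 (log2 -1.55).

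All 3 further Rubisco activase genes were lower, to different extents. RCA14 had 13, 31.8 and 12.1 in root meristem, against 6293 and 2841.5 in non-meristematic tissue (fitted log2 -7.95 ± 0.53). Only root meristem array 2 was above background there, so that its fitted value is imprecise. This probe set carries the suffix for possible cross-hybridization and lies in the design cluster of RCAALPHA. The other RCA14 probe sets were below background on every root meristem array (fitted log2 -9.08 and -9.74). RCABETA had 23.1, 24 and 23.9, against 322.2 and 325.8 (log2 -3.78 ± 0.27), with little spread in either group. Its probe set carries the same suffix, and its signal on root meristem array 1 was little above the background of 22.5. RCA11 had 118.7, 144 and 96.9, against 804.1 and 1059.8 (log2 -2.96 ± 0.27), on a probe set of the mixed cluster GmaAffx.1301. The differences between these genes were not tested.

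HEMB, GSA1 and CPX, of the tetrapyrrole synthesis that supplies both haem and chlorophyll, were lower by less than CHLH and had clear signal in root meristem. HEMB, the aminolevulinate dehydratase gene, had 278.5, 215.3 and 208.9, against 1825.8 and 2084.4 (8.4-fold, log2 -3.07 ± 0.22). GSA1, which makes aminolevulinate, was 5.29-fold lower (426 ± 22.2 against 2276 ± 493, brightest probe set), and all 3 of its probe sets were lower. CPX, a coproporphyrinogen oxidase gene, was 4.45-fold lower (577 ± 18.6 against 2587 ± 456). HEMG, a protoporphyrinogen oxidase gene (log2 -0.68 ± 0.28), and SGR2, named for the stay-green genes of chlorophyll breakdown (log2 -0.37 ± 0.43), did not pass. In all, 3 of the 6 tested genes of the chlorophyll and haem synthesis list were lower and 0 higher. Whether CHLH differed more than these genes was not tested.

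In carotenoid and tocopherol synthesis 4 of 10 genes were lower and 1 higher. Related loci differed in their calls here. DXR2, for 1-deoxyxylulose 5-phosphate reductoisomerase of the plastid isoprenoid pathway, had 2.3, 3.2 and 1.4 in root meristem, all below background, and 2977.9 and 324.1 in non-meristematic tissue, so that it was at least 48.4-fold lower. On non-meristematic array 1 alone the bound was 147-fold and on array 2 alone 16-fold, and with either left out the gene was no longer tested. DXR1 had 1210.2, 1466.7 and 1513.6, against 1000.2 and 725.5 (log2 0.71 ± 0.21) and did not pass, while after median centring it was called higher (log2 1.06). ZEP, the zeaxanthin epoxidase gene, was 34.5-fold lower, with 21.9, 27.2 and 24 against 1578.4 and 443.9 (log2 -5.11, and -4.19 or -6.02 without non-meristematic array 1 or 2). Its signal on root meristem array 1 was below the background of 22.5, so that this fold is imprecise. LOC100788252, whose synonym VTE5 stands for a phytol kinase of tocopherol synthesis, was 6.44-fold lower (63 ± 12.4 against 411 ± 130). HPT1, a homogentisate phytyltransferase gene of the same pathway, was higher, with 1012.3, 998.5 and 1136.1 against 298 and 575.8 (2.53-fold, adjusted p = 0.0124), on all 3 of its probe sets. That call was lost without non-meristematic array 1 (log2 0.86). HPPD, which makes homogentisate, had log2 -0.96 ± 0.32 on its brightest probe set and was not called, although 1 of its 3 probe sets was lower.

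Among plastid membrane lipid genes, 2 of 5 were lower and 0 higher. FAD8.2, a plastid fatty acid desaturase gene, was 5.5-fold lower (280 ± 50.8 against 1532 ± 199). DGD1, the other digalactosyldiacylglycerol synthase gene and the main one in Arabidopsis leaves, had 297.7, 198.5 and 171.9 in root meristem, against 577.8 and 364.7. The groups did not overlap, and the log2 difference was -1.08 ± 0.33 (adjusted p = 0.0388), a call lost under 7 of 16 alternatives, among them without root meristem array 2, array 3 or non-meristematic array 1. MGD1, which makes the galactolipid that DGD enzymes extend, had 181.3, 215.5 and 267.7, against 269.3 and 408.6 (log2 -0.60 ± 0.29), and did not pass. FAD6.1 had log2 -2.40 ± 0.81 and missed the threshold (adjusted p = 0.0554), with 711.5 and 84.5 on non-meristematic arrays 1 and 2. It was called lower without non-meristematic array 2 (log2 -3.93) and with array weights, and was at -0.86 without array 1.

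**Figure D5:**
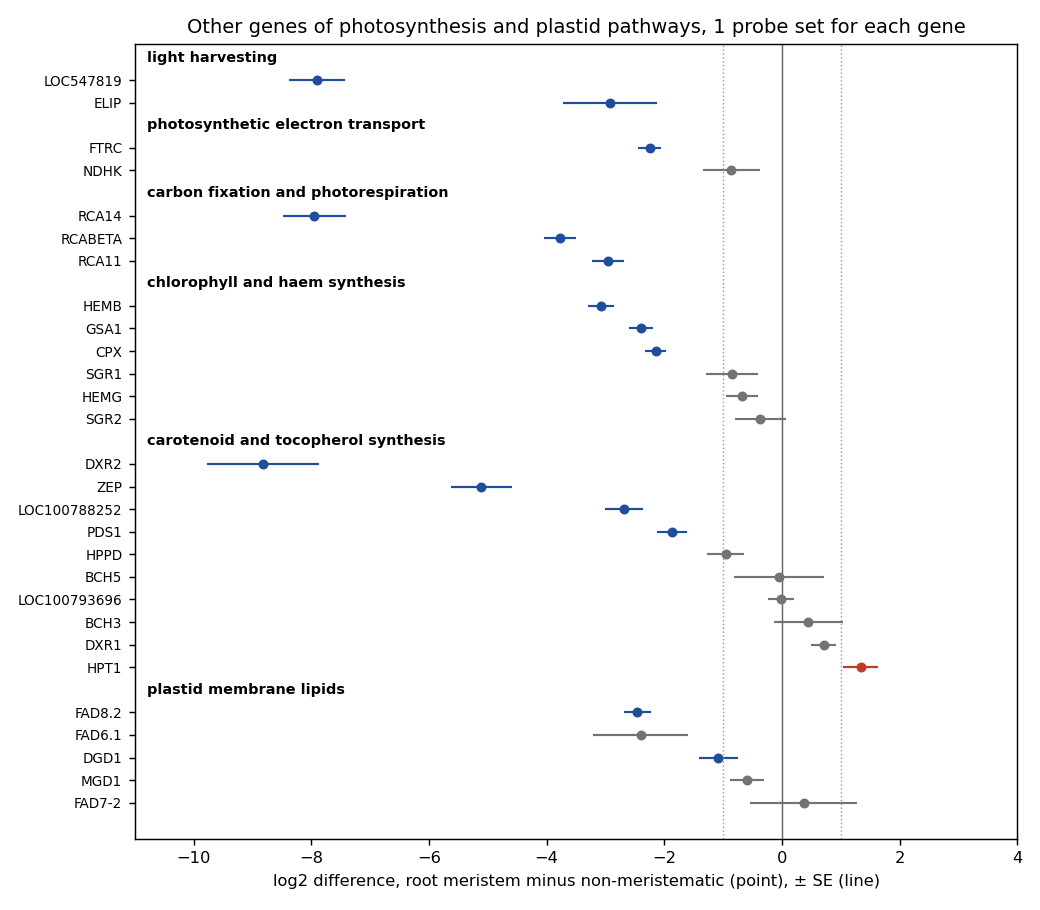
Log2 difference (point) and its standard error (line) of the 28 other tested genes, grouped by pathway, with blue for lower, red for higher and grey for genes that did not pass. Both light-harvesting and all 3 activase genes are blue, and HPT1 alone is red. The point of DXR2 rests wholly, and those of RCA14, ZEP and LOC547819 partly, on root meristem signals below background.

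The patterns most like those of the 8 genes were sought among 882 tested genes with a symbol other than a LOC number, by Pearson correlation of log2 signal over the 5 arrays. The closest were ALAAT3 for CAB3 (r = 0.9987), VSPA for PETC (0.9992), SODB for ATPC (0.9990), SEO-F3 for RCAALPHA (0.9997) and CYP90A15 for CHLH (0.9995). For PSAD, on GmaAffx.5376.4.S1_at, it was ACCC-3 (0.9990), for PTOX SCAM-5 (0.9938) and for DGD2 WRKY57 (0.9927). With 2 groups of arrays any gene that differs between them correlates strongly, and 72 to 135 genes had r above 0.95 with CAB3, PSAD, PETC, ATPC, RCAALPHA or CHLH, while 3 did with PTOX and 13 with DGD2.

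Marker genes of the tissues were compared too, beside the 21.0% lower and 18.6% higher over all genes. Of 7 leaf markers (vegetative storage protein, vegetative lipoxygenase and YABBY genes), 5 were lower in root meristem. Their summed signal was 6090 to 7143 on the root meristem arrays, most of it from the lipoxygenase gene VLXB, and 31528 and 40524 in non-meristematic tissue. None of these genes was at 0, and 3 were below background on every root meristem array. Of 8 phloem genes of the sieve element occlusion family 7 were tested and these 7 were lower. The sums over the 8 were 334 to 523 against 4995 and 4821. All 3 markers of root tip and dividing cells were higher (PIN2A, H4 and the PCNA gene LOC548079), with sums of 5560 to 6350 against 1374 and 1054. The list for differentiated root held 13 genes, among them nodulin, NIP and peroxidase genes. Whether they mark that tissue was not tested. Of the 13, 8 were above background on enough arrays to be tested, and of these 8, 3 were lower and 0 higher. The sums over the 13 were 7075 to 8490 against 9806 and 12356. The peroxidase gene PRX2 lay higher on every root meristem array without passing (log2 0.99). The part of tissue makeup in the differences of the photosynthesis genes was not tested, and organ and cell division state cannot be told apart in this design.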

How the data were processed

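The values the authors deposited are linear intensities that MAS5 computed, per the submitters' processing notes, which give neither its version nor its target. After trimming 2% the arrays averaged 267.7 to 276.8, and the precision is limited by their number. Signals below 0.1 were set to 0.1, log2 was taken with no further scaling, and probe sets above the 25th percentile of the array on at least 2 arrays were fitted with limma 3.58.1 (lmFit, eBayes with an intensity trend) in R 4.3.3, with 3 residual and 3.68 prior degrees of freedom. "At least" folds hold the dim group at background or its own signal, whichever is higher. All 21 probe sets matched the RefSeq gene table of Glycine_max_v4.0 by Entrez number; it served for names only. Members and lists were chosen with earlier results of these data known. The naming rule took all members, and in each pathway list up to 3 genes a direction and 2 that did not pass. From the list SBP2, SBP65, SBPRP, LOC100787186, SHMT, PAO1 and KTI3 were left out as not plastidial, and PC7 and LOC100170748 as not settled by symbol. In simulated data of 30941 probe sets, 50 were changed by log2 1.5, 50 by 3 and 100 by 6. Of these 10%, 56% and 79% were recovered, with 2 false calls. For the 2197 pairs 80% of 100 changes of size 3 were recovered, with 6 false calls. Far fewer probe sets were changed there than the 10060 called in the data, so that these rates need not hold here. Alternatives were scaling, floor, filter, variance model, array weights, replicate block, probe set choice and leaving out each array.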

Additional observations from a re-analysis of the deposited data

How the results depend on the processing

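Counts of probe sets called lower (9), of genes called lower (5) and of pathway genes called lower (15) stayed within 1.5 times under all alternatives but 1. Without _s_at and _x_at probe sets they were 5, 3 and 14, and CAB3 was then at log2 0.28. Leaving out each array gave 8 to 9 probe sets, 4 to 5 genes and 12 to 17 pathway genes, the lower values for the 8 genes arising because RCAALPHA then failed the filter. PSAD turned to log2 -4.81 with the median over its probe sets, or without the probe set in GmaAffx.5376, an alternative chosen after seeing the data. Signal above background on all root meristem arrays was found at 12 probe sets, and at 7 with the 40th percentile as background. Of 6 pairs of probe sets of 1 gene 5 differed, 3 with the replicate block, and 3 to 5 with each array left out; the pairs kept in the smallest count set GmaAffx.5376.4.S1_at or GmaAffx.759.1.S1_at against the others. Whether replicate numbers pair the arrays was not settled. Correlations of deviations were 0.10 for number 1 and -0.09 for number 2. The deviations of the 2 non-meristematic arrays mirror each other, so that these values cannot decide it. With the block 7589 probe sets were called in place of 10060, and 9 of the probe sets described here. NDHK was then called lower (log2 -1.10). Quantile normalization and median centring shifted the array-wide median log2 difference of 0.07 to 0.30 and 0.43, and the split from 4452 higher and 5608 lower to 5719 and 4717, and to 7668 and 4689. Signals near background, as for ATPC, RCAALPHA and CHLH, give only bounds or imprecise folds. The count of pathway genes called higher rose from 1 to 2 without non-meristematic array 1, after median centring, and, as an alternative chosen after seeing the data, with PC7 and LOC100170748, where the median was -1.47.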
